A study of Mus musculus with 12 samples.

Results

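Retinoic acid is made from vitamin A inside cells, and the 9 genes described here carry, make, bind, clear or sense it: Rbp4, Stra6, Aldh1a1, Aldh1a2, Crabp2, Cyp26b1, Rara, Rarb and Rarg. They were chosen by gene symbol among the transcript probes of the arrays. All 12 probes that bear these symbols were read, 11 of them passed the filter on dim probes, and 9 of 9 genes were measured among 18783 genes tested in all. The RNA came from ovaries of 12 C57BL/6J females, an inbred mouse strain, taken and minced at 2 months of age. Of these, 4 had a normal diet (control, C1 to C4), 4 a vitamin D-deficient diet in early life only (E1 to E4), and 4 the deficient diet around puberty only (peripubertal, P1 to P4), with 4 biological replicates stated for each group. RNA was labelled with Cy3 in odd and Cy5 in even replicates, and each of the 6 arrays carried a pair of samples of 1 group. The labels give the growth stage of the deficiency but no diet composition.

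The retinol-binding protein Rbp4 brings retinol through the blood, and the membrane protein Stra6 takes it up from Rbp4. Retinaldehyde dehydrogenases such as Aldh1a1 and Aldh1a2 turn retinaldehyde into retinoic acid, Crabp2 hands the acid to the nucleus, and enzymes of the Cyp26 family oxidise it for removal. The receptors Rara, Rarb and Rarg bind retinoic acid and act on DNA as pairs with a retinoid X receptor (RXR), the same partner that the vitamin D receptor uses. In the fetal ovary retinoic acid is known for its part in the entry of germ cells into meiosis.

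The labels of the arrays carry a conflict that touches each result below. In the authors' deposited value table the 8 control and early-life columns matched scanner channels of the other of these groups (correlation across features from 0.999767), so which deposit names these arrays correctly is not settled. Groups are named here as on the scanner files. With the arrays exchanged, every early-life minus control difference changes sign, and each comparison of the early-life or control group with the peripubertal one becomes the other. Control and early-life arrays were on 1 slide and peripubertal arrays on another, and an effect of the slide cannot be told apart from one of the peripubertal diet. A channel's median signal stood at 6.85 to 9.49 times its background, with 55.4% to 62.5% of its probes well above it. With 6 arrays, the precision of each value is limited by their number.

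Short stretches of the probes are shown because the receptor genes were read at more than 1 place, and a level belongs to the probe rather than to the gene. Each stretch is 30 bases of a 60-base probe in the sense of the transcript, with the polyadenylation signal AATAAA in capitals where the probe holds it on that strand. The positions are those of the whole probe in build mm9, per the file headers. An annotation of mm9 was not used here, and exon or UTR is not given.
Aldh1a1, chr19:20717764-20717823, plus strand: gtgactccttgaagtactcaccacacataa
Stra6, chr9:58001701-58001760, plus strand: tgtgctctctgtAATAAAtgtgcctctgag
Rarg, chr15:102065371-102065430, minus strand: ctatttttgcaaAATAAAgtgatggaaact
Rarb, chr14:17263367-17263426, minus strand: ttccatggagtctcctggcaaagAATAAAt
Rarb, chr14:17264648-17264707, minus strand: agttcaagtgggaatatagcagagcacagt
Rarb (accession X56569), chr14:17651424-17651483, minus strand: ttctgtgtgattctggacctgtagtaatgt
The signal stood in 4 of the 12 probes, those of Stra6 and Rarg and 1 each of Rara and Rarb, and in 12.6% of all 39429 probes. A match shows only that these letters are in the probe.

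Rarb is also a textbook target of retinoic acid through a direct repeat in its own promoter. The 250 bases before its RefSeq start (build GRCm38.p6, chr14:16575477-16575726, minus strand) are printed 5′ to 3′ because they hold the only such repeat among the members, with its half-sites in capitals.
Rarb promoter: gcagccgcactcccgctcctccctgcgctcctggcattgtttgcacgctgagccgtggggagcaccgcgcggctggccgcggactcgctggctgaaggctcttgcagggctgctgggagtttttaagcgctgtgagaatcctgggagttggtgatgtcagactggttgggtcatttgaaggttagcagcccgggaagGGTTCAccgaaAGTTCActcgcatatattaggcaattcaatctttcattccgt
The search covered windows of 250 bases before to 50 after a start, on both strands, for any pair of half-sites in the same direction with 5 bases between them. A half-site could be AGGTCA or its variants, the form AGTTCA, the form GGGTCA or the form GGTTCA. It found 1 match among 17 windows of 8 members (Crabp2 had no window) and 32 among all 32851 windows, or 0.0974%. With 2 bases between the half-sites 0.268% of all windows matched and with 3 bases, the spacing known for the vitamin D receptor, 0.0396%, and 0 of the 17 member windows did in either case. The single half-site AGGTCA and the form AGTTCA, which the repeats also hold, were in 2 and 3 of the 17 member windows and in 16.3% and 14% of all windows.

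No member passed limma's test over all genes in any of the 3 comparisons. The largest differences were a lower Aldh1a1 in early-life ovaries (-0.86 ± 0.30 against control and -0.94 ± 0.30 against peripubertal, log2 difference ± standard error) and a higher Rarg in early-life than in peripubertal ovaries (0.96 ± 0.35). Stra6 and Aldh1a2, which act in retinol uptake and retinoic acid synthesis, also had all early-life values below all peripubertal ones, but their differences did not pass either. Rara, by contrast, differed by at most 0.13 in size in any comparison. Among all genes the test called 4 (0.0213%) for early life minus control, 43 (0.229%) for peripubertal minus control and 481 (2.56%) for early life minus peripubertal, of which 382 were lower in early life.

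At an unadjusted p under 0.05 in limma, 1 member was lower in early life than in control, where 13.9% of all genes reached it, 9.4% with a lower level. The count was 0 for peripubertal minus control (11.4% of all genes) and 3 for early life minus peripubertal (23.8%). There Aldh1a1 and Stra6 were lower, as were 15% of all genes at that p, and Rarg was higher, as were 8.8%. The values of the groups did not overlap for 0 members between early life and control (14.2% of all genes) and 0 between peripubertal and control (12%). Between early life and peripubertal they did not overlap for 3 members, Aldh1a1, Aldh1a2 and Stra6, all lower in early life, against 21.1% of all genes, or 14.3% lower in early life. With so few members these counts are a description. The median log2 differences of the 9 members were -0.04, 0.07 and -0.13 in the 3 comparisons, beside -0.02, 0.01 and -0.03 over all genes.

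**Figure D1:**
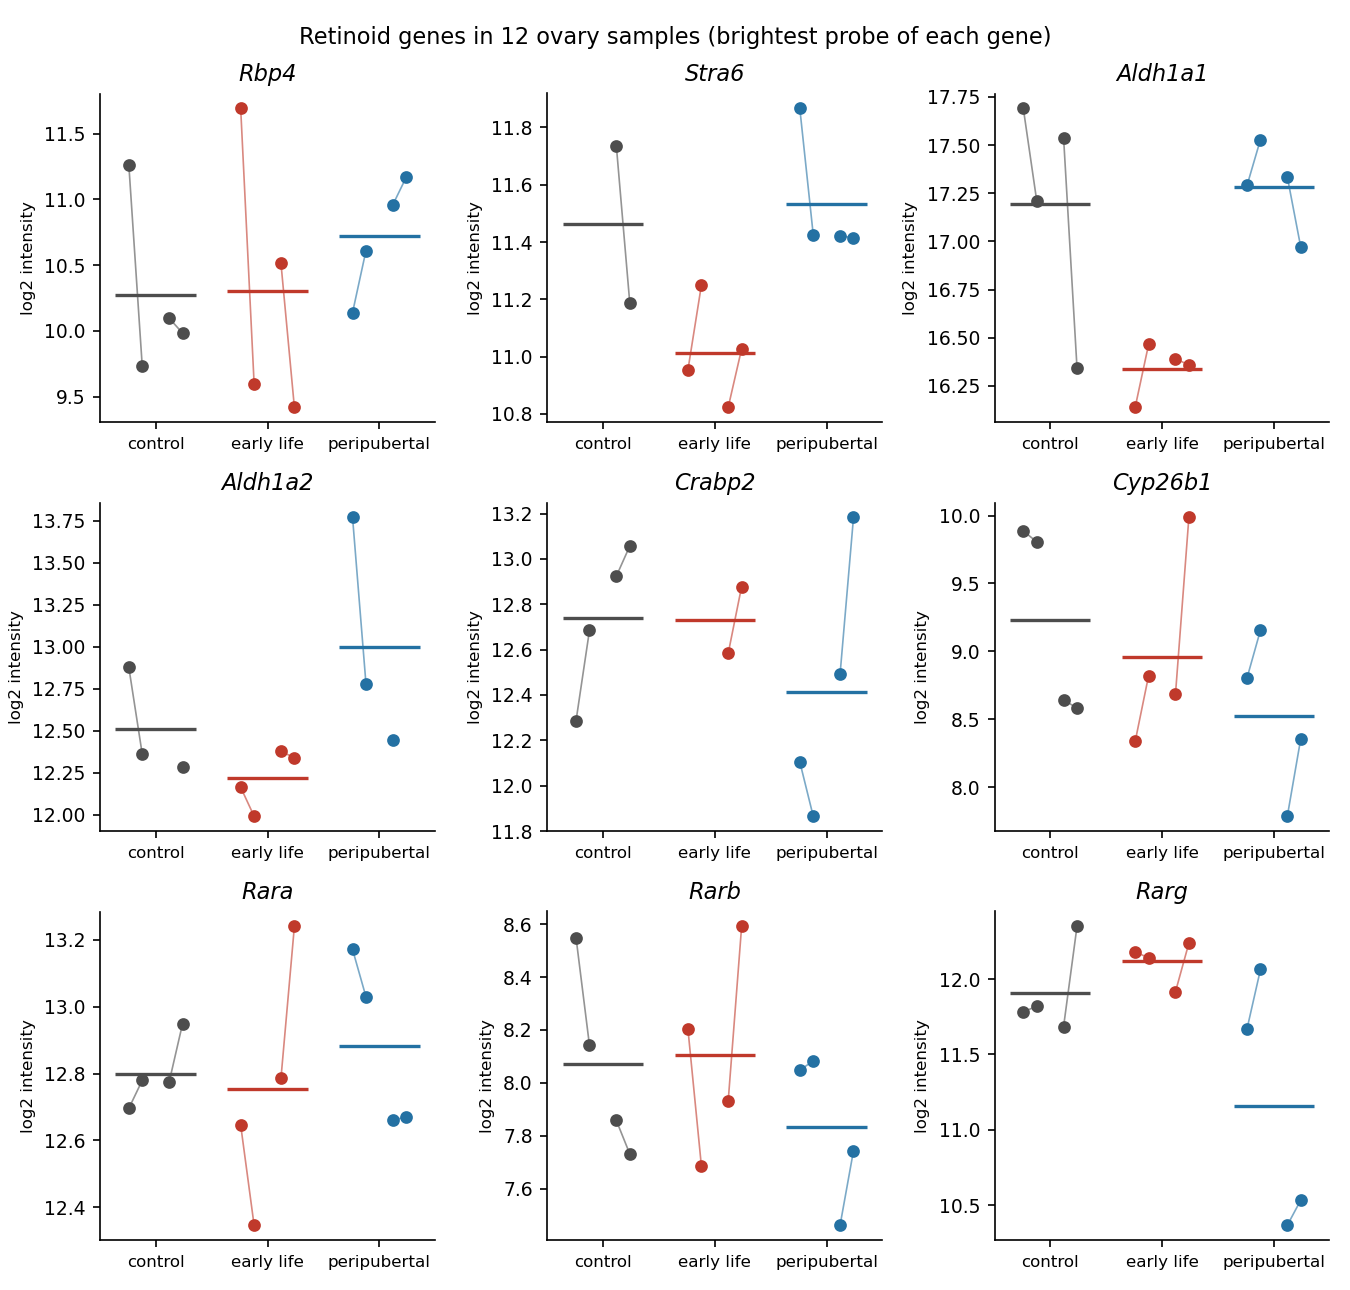
Normalised log2 intensity of the brightest probe of each gene in the 12 ovary samples by diet group, one panel per gene with its own axis that does not start at 0. Points are samples 1 to 4 from left to right, thin lines join the 2 samples of an array, bars are group means, and a missing point is a spot set aside by the scanner software; Aldh1a1 of C4 lies with the early-life samples, and Rarg of P3 and P4 lies below all others.

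**Figure D2:**
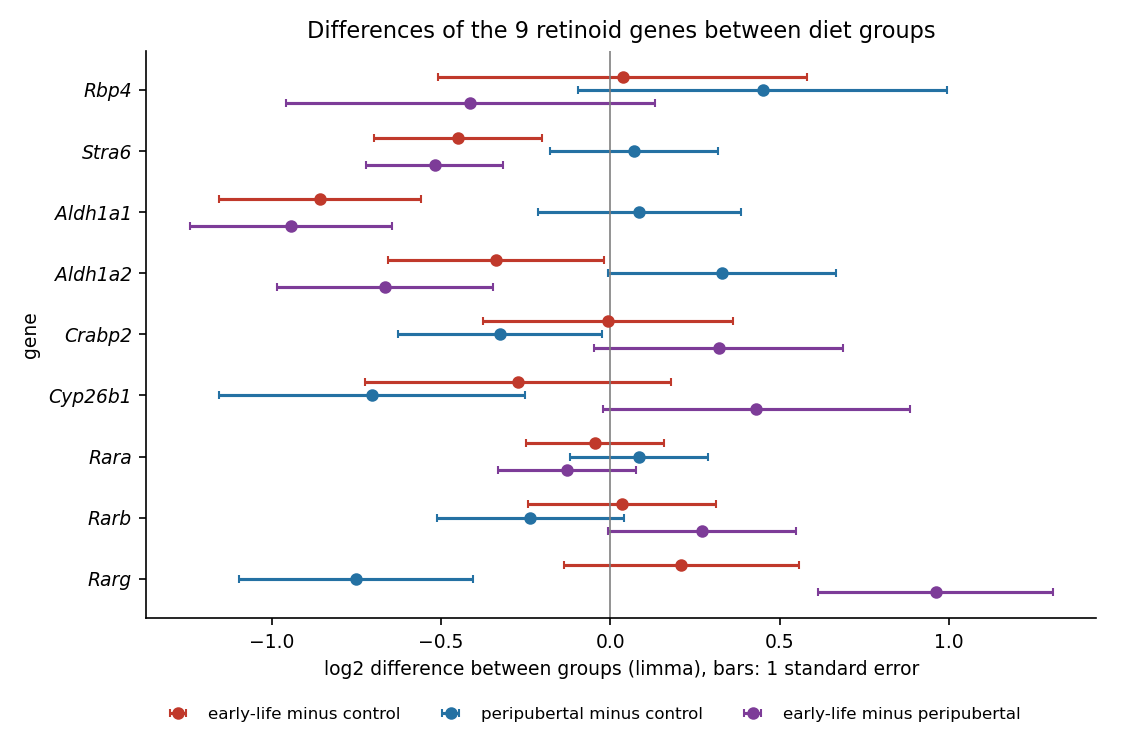
Log2 difference of each of the 9 genes in the 3 comparisons, as points with 1 standard error from limma on each side (x axis, log2; y axis, gene). Aldh1a1 has its points at -0.86 and -0.94 for early life against control and peripubertal, Rarg at 0.96 for early life minus peripubertal, and no point passed the test over all genes.

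Rbp4, the blood carrier of retinol, was the most variable member on the log2 scale, with a 4.83-fold range over the 12 samples. Its log2 level was 11.27, 9.73, 10.10 and 9.98 in the control samples C1 to C4. It was 11.69, 9.60, 10.52 and 9.42 in E1 to E4, and 10.14, 10.61, 10.96 and 11.17 in P1 to P4. The highest values, E1 and C1, and the lowest, E4 and E2, thus came from 3 arrays of the control and early-life groups, and all 3 groups overlapped. The differences were 0.04 for early life minus control, 0.45 for peripubertal minus control and -0.41 for early life minus peripubertal, each with a standard error of 0.54. Leaving out 1 sample at a time moved the last difference between -0.82 without E1 and -0.12 without P4. In whole tissue, a change in the number of cells of a type cannot be told apart from a change in RNA per cell, here and in all values below.

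Stra6, the receptor that takes retinol into cells, measured 11.74 and 11.19 in C3 and C4, while the spots of C1 and C2 had been set aside as outliers by the scanner software. It measured 10.95, 11.25, 10.82 and 11.03 in E1 to E4 and 11.87, 11.43, 11.42 and 11.42 in P1 to P4. Every early-life value lay below every peripubertal one, and the lower of the control values lay within the early-life range. Early life minus peripubertal was -0.52 ± 0.20 (adjusted p = 0.175) and early life minus control -0.45 ± 0.25 (adjusted p = 0.444) on 2 control values. Peripubertal minus control was 0.07 ± 0.25. With a sample's mean deviation in 12 markers of oviduct epithelium (its oviduct score) as covariate, the early-life differences were -0.22 ± 0.26 from peripubertal and -0.30 ± 0.26 from control. The score ran from -0.73 to 2.66 in early-life and from -1.71 to -0.90 in peripubertal samples, without overlap. In comparisons of these groups, here and below, the fit cannot fully separate score and group. The difference from control was -0.17 without C3 and -0.73 without C4.

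Aldh1a1, a retinaldehyde dehydrogenase, was measured by a probe at the 99.3rd percentile of brightness among those that passed, with no saturated spot. Its log2 level was 17.69, 17.21, 17.54 and 16.34 in C1 to C4, 16.14, 16.47, 16.39 and 16.36 in E1 to E4, and 17.29, 17.53, 17.33 and 16.97 in P1 to P4. C4 was the low control and fell inside the early-life range of 16.14 to 16.47, while the other controls overlapped the peripubertal values. The group means were 17.20 ± 0.60 (SD, n = 4), 16.34 ± 0.14 and 17.28 ± 0.23 in control, early-life and peripubertal ovaries. Early life was lower than control by 0.86 ± 0.30 on the log2 scale, a ratio of 0.552 (limma, unadjusted p = 0.0166, adjusted p = 0.282). Early life minus peripubertal was -0.94 ± 0.30, a ratio of 0.520 (adjusted p = 0.107), and these groups did not overlap. Peripubertal minus control was 0.09 ± 0.30. As the arrays are labelled, early life thus had the lowest mean, while control and peripubertal did not differ beyond their spread.

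A single sample moved the side of the threshold for Aldh1a1. Without C4 the adjusted p of early life minus peripubertal was 0.0406, and without the array as a block it was 0.0359, both under 0.05. Leaving out the block, here and below, treats the 2 samples of an array as independent. In that setting 2103 genes passed for early life minus peripubertal, against 481 with the block. With the oviduct score as covariate the Aldh1a1 difference from peripubertal was -0.60 ± 0.40, smaller by more than 1.5 times. In the authors' deposited value table, where the groups are the other way round, Aldh1a1 was 0.99 higher in the columns named early life.

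Aldh1a2, a second enzyme of the same step, measured 12.88, 12.36 and 12.28 in C1, C2 and C4, with no value for C3. It measured 12.16, 11.99, 12.38 and 12.34 in E1 to E4 and 13.77, 12.78 and 12.45 in P1 to P3, with no value for P4. P1 stood highest, and the early-life samples lay below the peripubertal ones by a gap between 12.38 in E3 and 12.45 in P3. Early life minus peripubertal was -0.67 ± 0.32 (adjusted p = 0.247), early life minus control -0.34 ± 0.32 and peripubertal minus control 0.33 ± 0.34. Without P1 the differences of early life and control from peripubertal shrank, with early life minus peripubertal at -0.39 ± 0.21 and peripubertal minus control at 0.09 ± 0.22, and without P3 they were -1.06 ± 0.25 and 0.70 ± 0.26.

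Crabp2, the binding protein that delivers retinoic acid to its receptors, measured 12.29, 12.69, 12.92 and 13.06 in C1 to C4. E3 and E4 measured 12.58 and 12.88, and the spots of E1 and E2, which share an array, had been set aside. P1 to P4 measured 12.11, 11.87, 12.49 and 13.18, so that the peripubertal group spanned the lowest and the highest value of all. The differences were -0.01 ± 0.37, -0.33 ± 0.30 and 0.32 ± 0.37 for early life minus control, peripubertal minus control and early life minus peripubertal. Without P2 the last pair was -0.10 and 0.09, and without P4 it was -0.54 and 0.53.

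Cyp26b1, an enzyme that removes retinoic acid, differed more between arrays of a group than between groups. It measured 9.89 and 9.81 in C1 and C2, which share an array, and 8.64 and 8.58 in C3 and C4, which share another. E1 to E4 measured 8.34, 8.82, 8.68 and 9.99, and P1 to P4 measured 8.80, 9.16, 7.79 and 8.36. In the peripubertal group, too, both samples of 1 array lay above both of the other, while in the early-life group E4 alone was high. The differences were -0.27 for early life minus control, -0.70 for peripubertal minus control and 0.43 for early life minus peripubertal, each with a standard error of 0.45. The last was 0.14 without E4, 0.28 without P3 and 0.09 with the oviduct covariate, and peripubertal minus control was -0.43 without C1.

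Rara was read by a pair of probes that gave the same picture. The brighter measured 12.70, 12.78, 12.77 and 12.95 in C1 to C4, 12.65, 12.35, 12.79 and 13.24 in E1 to E4, and 13.17, 13.03, 12.66 and 12.67 in P1 to P4. All groups overlapped, E4 was highest and E2 lowest. Its 3 differences were -0.04, 0.08 and -0.13, each ± 0.20. The other probe ranged from 10.57 to 11.33 with differences of -0.08, 0.01 and -0.09.

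The probes of Rarb did not all report a transcript. The brightest measured 8.55, 8.14, 7.86 and 7.73 in C1 to C4, 8.20, 7.69, 7.93 and 8.59 in E1 to E4, and 8.05, 8.08, 7.46 and 7.74 in P1 to P4. The groups overlapped, with differences of 0.03, -0.24 and 0.27, each ± 0.28. A second probe, on the same accession as the first, ranged from 6.77 to 7.39 and was well above background in 8 of 12 samples, with differences of -0.01, -0.19 and 0.18. The probe for accession X56569, printed last above, was not well above background in any of the 12 samples. A level of that transcript is therefore not given.

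Rarg, the receptor best known from epithelia, measured 11.78, 11.82, 11.68 and 12.35 in C1 to C4, 12.18, 12.14, 11.92 and 12.24 in E1 to E4, and 11.67, 12.06, 10.37 and 10.53 in P1 to P4. P3 and P4, the pair of 1 array, lay more than 1 log2 unit below every other sample, while P1 and P2 lay within the range of the other groups. The peripubertal mean was 11.16 ± 0.84 (SD, n = 4), against 11.91 ± 0.30 in control and 12.12 ± 0.14 in early-life ovaries. Early life minus peripubertal was 0.96 ± 0.35 (limma, unadjusted p = 0.0195, adjusted p = 0.142) and peripubertal minus control -0.75 ± 0.35 (adjusted p = 0.450). The peripubertal mean is set by the array of P3 and P4, and the part of that array was not tested. With the oviduct score as covariate early life minus peripubertal was 0.59 ± 0.45, where score and group cannot be fully separated. Early life minus control was 0.21 ± 0.35.

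Cyp26b1 and Rarb varied together over the samples of all groups, and their relation within a group was not computed. Over 36 pairs of members, with the mean of each dye removed, Cyp26b1 and Rarb had a Pearson r of 0.883 over 12 samples (permutation p = 0.00016, Benjamini-Hochberg adjusted 0.00576) and a Spearman rho of 0.797 (permutation p = 0.00285, adjusted 0.0513). C1, C2 and E4 were high in Cyp26b1 and C1 and E4 in Rarb, while P3 was lowest in both. Without the 2 samples farthest from the median of Cyp26b1 r was 0.742, and within the 8 samples of the control and early-life slide it was 0.840. The 4 samples of the other slide are too few for a value. These values share arrays, so 12 samples are fewer than 12 independent points. Of the other pairs 0 reached an adjusted p under 0.05 for either coefficient.

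**Figure D3:**
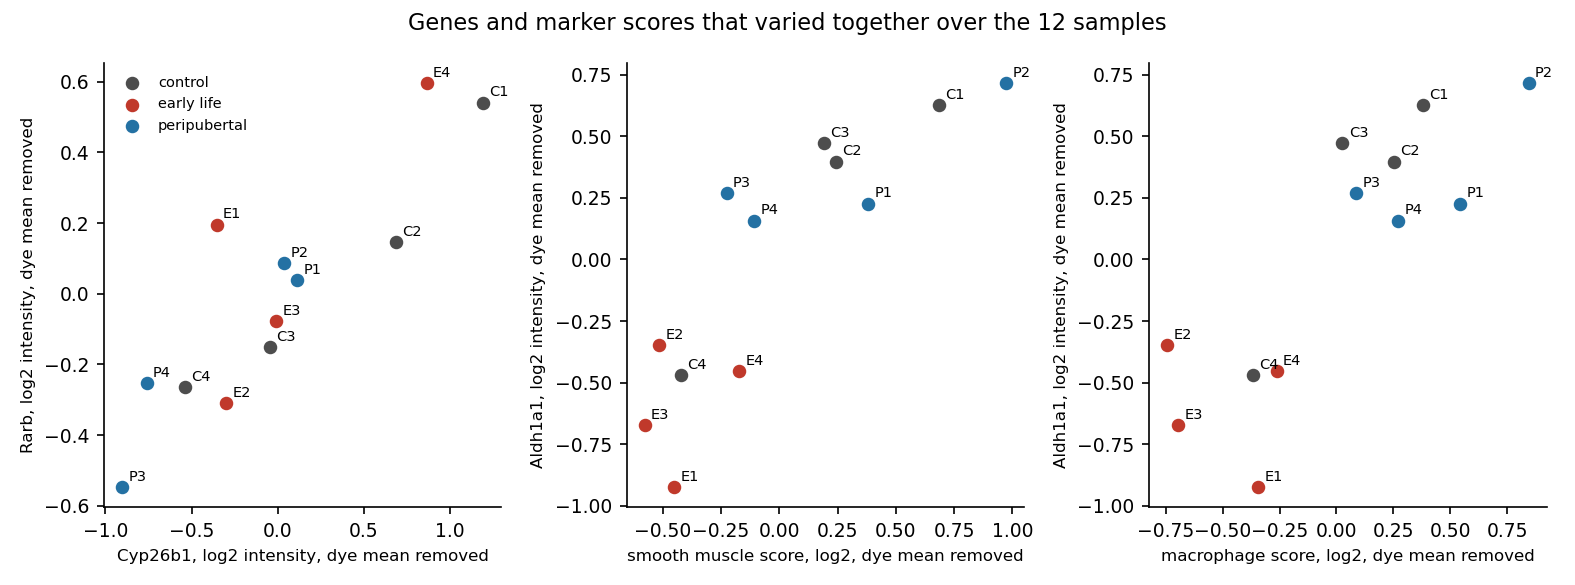
Log2 values of 12 ovary samples with the mean of each dye removed: Rarb against Cyp26b1 (left), and Aldh1a1 against the mean of smooth muscle markers (middle) and of macrophage markers (right). Rarb and Cyp26b1 run along a line (r = 0.883), and for Aldh1a1 the 4 early-life samples and C4 lie apart from the other 7, at the low end of both marker scores.

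Aldh1a1 fell into separate sets of samples, with C4 and E1 to E4 on the low side and the other 7 on the high side of a gap of 0.51 log2 units (after removal of the dye mean). The widest gap within either set was 0.25. The 5 low samples also had low marker scores of smooth muscle, the contractile cells of vessels and stroma, at -0.58 to -0.17, against -0.23 to 0.97 in the other 7. For macrophage markers the scores were -0.74 to -0.26 and 0.03 to 0.84, without overlap. Since the samples fell into separate sets, no correlation of Aldh1a1 with a marker score over all 12 is given. Within the 7 high samples r was 0.842 (rho 0.679) with the smooth muscle score, 0.454 (rho 0.214) with the macrophage score and -0.255 (rho -0.143) with that of theca and stroma. These 7 were set apart by Aldh1a1's own values and pool C1 to C3 with P1 to P4. The coefficients are therefore a description of 7 samples and not a test. All 10 of 10 macrophage and 8 of 8 smooth muscle markers were measured, and their part in the Aldh1a1 difference was not tested.

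Between groups, the macrophage markers had a median difference of -0.74 for early life minus control and -1.20 for early life minus peripubertal, with 0 and 4 of 10 passing the test over all genes, and 8 and 9 lower at an unadjusted p under 0.05. Those of smooth muscle had medians of -0.59 and -0.76, with 0 of 8 passing in both and 2 lower at an unadjusted p under 0.05 in each. Of all genes 0.0213% and 2.56% passed in these comparisons, and 9.4% and 15% were lower at that unadjusted p. The summed level of the macrophage markers ranged from 13.03 to 13.68 in early-life, 13.21 to 14.45 in control and 13.97 to 14.70 in peripubertal samples, in log2 units. For the smooth muscle markers it ranged from 15.67 to 16.04, 15.62 to 17.27 and 15.77 to 17.27.

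The rank of Rarg over the samples followed the score of oviduct epithelium markers, a tissue that lies against the ovary. Spearman's rho was 0.909 over 12 samples (permutation p = 0.00012, adjusted 0.0108 over 90 relations of a marker list and a member). Pearson's r was 0.644 (permutation p = 0.0224, adjusted 0.139), 0.634 without the 2 samples of the most extreme oviduct score, and 0.759 within the control and early-life slide. The 2 samples left out were E1 and E4, so P3 and P4, which lie apart in Rarg, stayed in. The coefficients over the 12 samples thus include the drop in that array, while the slide's value holds no peripubertal sample. With the dye mean removed, as for these coefficients, the score was -1.78 in P3 and -1.17 in P4, where Rarg was lowest at -1.23 and -1.32. It was also -1.28 in P1, where Rarg was at 0.07. Of the 14 oviduct markers 12 were measured, with the summed level at 15.28 to 17.14 in control, 15.41 to 18.47 in early-life and 12.93 to 15.29 in peripubertal samples, and their part in the Rarg difference was not tested.

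Aldh1a2 ranked with the smooth muscle score over the 10 samples that had a value. Spearman's rho was 0.903 (permutation p = 0.00085, adjusted 0.0255 over the same 90 relations) and Pearson's r 0.725 (permutation p = 0.0146, adjusted 0.132). Without the 2 samples of the most extreme score r was 0.822, and within the 7 samples of the control and early-life slide it was 0.790. The macrophage score gave a rho of 0.867 (permutation test, adjusted p = 0.0522) and an r of 0.758 (adjusted p = 0.102). Whether Aldh1a2 goes with 1 score rather than the other was not tested. Here and for Rarg, samples share arrays and are not independent points. Samples of all groups were pooled and permuted together, so a shift between groups enters these relations. A relation within a group was not computed. By Spearman's rho 3 of the 90 relations had an adjusted p under 0.05, those of Rarg and Aldh1a2 given here and that of Aldh1a1 with smooth muscle, whose samples fell into sets.

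For the members with a value in all 12 samples, the genes most like them were taken among 12122 genes with complete values, by Pearson's r over the 12 log2 levels and without removal of the dye mean. For Aldh1a1, where r over the 12 samples includes the gap between its separate sets, they were Stab1 (0.97), a scavenger receptor of sinusoidal endothelium and macrophages, the endothelin-converting enzyme Ece2 (0.96) and the surface glycoprotein Thy1 (0.95). For Cyp26b1 the first was Rarb itself (0.83), followed by Ddn (0.82) and the cytokine Tnf (0.81). Tnf ran only from 6.55 to 6.73 over the 12 samples. The lowest signals well above background had a mean of 6.75 on the peripubertal arrays, so this r rests on values near the background. Rarb was most like Fbxw10 (0.95), Slc44a2 (0.93) and Tmem38a (0.91), and Rarg was most like Mfsd1 (0.94), the RNA helicase Ddx6 (0.94) and Zbtb12 (0.94). Like Rarg, these genes were lowest in P3 and P4, which share an array, so r over the 12 samples includes that drop. In P3 and P4 Mfsd1 was at 9.06 and 9.25, Ddx6 at 8.62 and 8.72, and Zbtb12 at 10.83 and 10.93. The lowest values elsewhere were 9.94, 9.48 and 11.56. Rara had 1810013A23Rik, Klhl6 and Cnnm3 at 0.90, 0.89 and 0.86, and Rbp4 had the Polycomb protein Eed, Zfp94 and Cxcr3 at 0.88, 0.79 and 0.78. The level of 1810013A23Rik, also near the background, ran from 6.71 to 7.12, and that of Eed only from 12.32 to 12.51. The highest of 12122 values is high by selection, so no p is given.

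The rest of the pathway was read from a list of 43 other genes of retinol handling, retinoic acid turnover and receptor partners, of which 33 were measured. Of these, 0 passed limma's test in any comparison, with 1, 4 and 8 at an unadjusted p under 0.05 for early life minus control, peripubertal minus control and early life minus peripubertal, where 13.9%, 11.4% and 23.8% of all genes reached it. The medians of the list were -0.09, -0.11 and -0.06, and they were the same to 2 decimals with genes not above background set at the bound of their fold. Rdh10, which oxidises retinol to retinaldehyde, measured 9.26 to 10.31 in early-life and 8.76 to 9.08 in peripubertal samples, a difference of 0.79 ± 0.26 (adjusted p = 0.117). It was 0.25 with the oviduct score as covariate, and it passed without the array as a block (adjusted p = 0.0385) and without E2 (adjusted p = 0.0430). Rdh14, another retinol dehydrogenase, differed by -0.42 ± 0.13 in the same comparison (adjusted p = 0.0959). It passed in 1 of 23 other settings, without the array block (adjusted p = 0.0410), and was -0.44 with the oviduct score as covariate (adjusted p = 0.285). Nrip1, a corepressor of nuclear receptors, measured 13.07 to 13.18 in peripubertal and 12.14 to 12.83 in control samples, higher by 0.63 ± 0.16 (adjusted p = 0.229, limma).

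Among the remaining genes with the smallest p, Adh5 had differences of -0.18 ± 0.091 and -0.25 ± 0.091 from control in early life and peripubertal, Rdh12 -0.43 ± 0.23 for early life minus control, and Dhrs4 -0.29 ± 0.099 for peripubertal minus control. Cyp26a1, the other main enzyme of retinoic acid removal, is named here after its values were seen. It measured 8.54, 6.76, 6.85 and 8.78 in C1 to C4, 10.70, 6.83, 9.69 and 11.51 in E1 to E4, and 6.44 to 6.65 in P1 to P4. It was well above background in 2 controls, 4 early-life and 0 peripubertal samples, so early life was at least 7.65-fold higher than peripubertal (adjusted p = 0.137), the mean of all 4 early-life samples set against the lowest signals well above background on the peripubertal arrays. E4, E1 and E3 were highest in Cyp26a1 and also in the oviduct score, at 2.66, 2.10 and 1.34 (dye mean not removed), while E2 had an oviduct score of -0.73. The bound was 14.8-fold without E2 and 5.02-fold without E4. The fitted difference, 3.15 on the log2 scale, was -0.11 with the oviduct score as covariate (adjusted p = 0.891) and 5.54 with the processed signals. The score ran from -0.73 to 2.66 in early-life and from -1.71 to -0.90 in peripubertal samples. Without overlap, the fit cannot fully separate score and group. The Cyp26a1 difference passed without E2 (4.17, adjusted p = 0.0255) and without the array block (adjusted p = 0.0468).

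**Figure D4:**
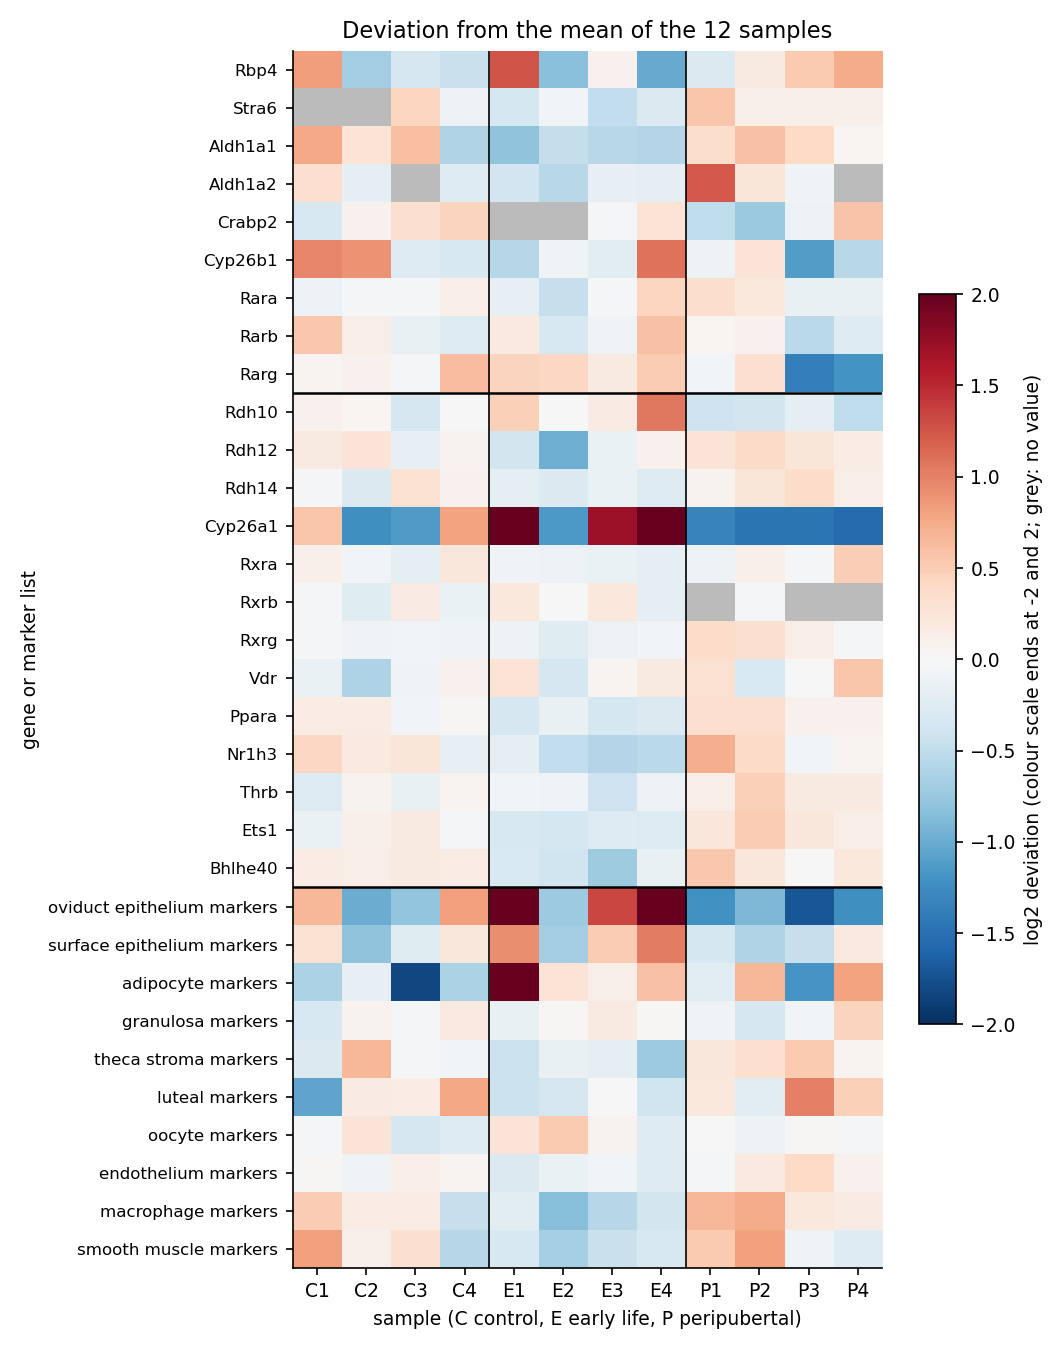
Log2 deviation of each gene, or mean deviation of each marker list, from its mean over the samples with a value (rows) in the 12 samples (columns). The 9 members are at the top, other retinoid, RXR partner and retinoic acid responsive genes in the middle and marker lists at the bottom; red is higher, blue is lower, grey has no value, and Cyp26a1 is high in the same samples, E1, E3 and E4, as the oviduct markers.

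The RXR genes, whose proteins pair with both the retinoic acid and the vitamin D receptor, did not pass in any comparison. Rxra was 7.66 ± 0.18 (SD, n = 4) in control, 7.51 ± 0.049 in early-life and 7.74 ± 0.27 in peripubertal ovaries, with differences of -0.15, 0.09 and -0.24 that did not pass. Rxrb differed by 0.11 ± 0.095 in early life minus control, and by 0.18 ± 0.14 in peripubertal minus control on 1 peripubertal value. Rxrg, measured at 12.02 to 12.20 in early-life and 12.22 to 12.62 in peripubertal samples, differed by -0.32 ± 0.098 without overlap (adjusted p = 0.0962). It passed in 1 of 23 other settings, without the array block (adjusted p = 0.0447), and was -0.41 with the oviduct score as covariate (adjusted p = 0.210). Its peripubertal minus control difference was 0.26 ± 0.098 (adjusted p = 0.364). Vdr, the vitamin D receptor, measured 8.28, 7.78, 8.33 and 8.49 in C1 to C4, 8.68, 8.06, 8.46 and 8.59 in E1 to E4, and 8.71, 8.10, 8.40 and 8.95 in P1 to P4. Its groups overlapped, with differences of 0.23, 0.32 and -0.09, each ± 0.26.

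Of 13 receptors that pair with RXR 12 were measured, and 1 passed, Ppara, the fatty acid-sensing receptor that drives fat oxidation genes. Ppara passed for early life minus peripubertal, where 2.56% of all genes passed, and a single call is a description. It is not a result about the list. Ppara measured 9.64, 9.63, 9.44 and 9.50 in C1 to C4, 9.15, 9.33, 9.14 and 9.20 in E1 to E4, and 9.83, 9.83, 9.57 and 9.58 in P1 to P4, with the early-life samples below all others. Early life was lower than peripubertal by 0.50 ± 0.097 on the log2 scale (limma, adjusted p = 0.0365) and lower than control by 0.35 ± 0.097, which did not pass (adjusted p = 0.228). The call was lost without any 1 of C2, C3, E1, E3, E4, P1, P2 and P3 (adjusted p = 0.050028 to 0.118), with the scanner software's processed signals (difference -0.09, adjusted p = 0.876), and with the mean over the gene's probes (-0.38, adjusted p = 0.177). It was also lost with the oviduct score as covariate (-0.45, adjusted p = 0.191).

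Of the other receptors, Nr1h3, an oxysterol sensor also strong in macrophages, had early-life values of 9.59 to 9.99 below controls of 10.01 to 10.58 and peripubertal values of 10.12 to 10.90. Its differences were -0.62 ± 0.19 and -0.73 ± 0.19 (adjusted p = 0.238 and 0.0646). The latter passed in 3 of 23 other settings, without the array block, with the replicate number as a block and without P3 (adjusted p = 0.0280, 0.0333 and 0.0416). It was -0.78 with the oviduct score as covariate and did not pass there (adjusted p = 0.218). The thyroid hormone receptor Thrb was at 8.66 to 9.02 in early life and 9.21 to 9.55 in peripubertal samples (-0.41 ± 0.11, adjusted p = 0.0750). It passed in 2 of 23 other settings, without the array block (adjusted p = 0.0257) and with quantile normalization (adjusted p = 0.0485). The difference was -0.33 with the mean over its probes (adjusted p = 0.195) and -0.44 with the oviduct score as covariate (adjusted p = 0.241). Thrb was 0.32 ± 0.11 higher in peripubertal than in control samples (adjusted p = 0.317). Nr1i2, a xenobiotic sensor, was not well above background in any peripubertal sample, and early life was at least 1.67-fold higher (adjusted p = 0.140). The fitted Nr1i2 difference of 1.02 was 0.05 with the oviduct score as covariate and 2.99 with the processed signals, and it passed without E2 (adjusted p = 0.0292). Pparg, the receptor that drives fat cell formation, differed by 0.51 ± 0.23 in early life minus control. It is also 1 of the 9 measured of 10 adipocyte markers, whose median difference there was 2.14, with 0 passing, 7 higher at an unadjusted p under 0.05 and 6 without overlap. In that comparison 4.51% of all genes were higher at that p, and 14.2% did not overlap. The summed log2 level of the adipocyte markers was 13.17 to 14.44 in control, 14.84 to 17.50 in early-life and 13.64 to 15.63 in peripubertal samples, highest in E1. Their part in the Pparg difference was not tested. Thra differed by 0.24 ± 0.18 and Nr1h4 by 0.59 ± 0.46 in peripubertal minus control. At an unadjusted p under 0.05 the counts of this list were 3, 1 and 5 in the 3 comparisons, where 13.9%, 11.4% and 23.8% of all genes reached it, and its medians were -0.06, 0.10 and -0.24.

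A list of 20 genes known to respond to retinoic acid had 14 measured members, of which 1 passed. That call was for early life minus peripubertal, where 2.56% of all genes passed, and it is not a result about the list. Ets1, a transcription factor of endothelial and immune cells, measured 11.29, 11.53, 11.60 and 11.40 in C1 to C4, 11.10, 11.08, 11.18 and 11.15 in E1 to E4, and 11.66, 11.93, 11.65 and 11.56 in P1 to P4. The early-life samples lay below all the others. Early life was lower than peripubertal by 0.57 ± 0.12 on the log2 scale (limma, adjusted p = 0.0399), and early life minus control was -0.33 ± 0.12 (adjusted p = 0.286). The call was lost without any 1 of C2, C3, E1, E3, E4 and P1 to P4 (adjusted p = 0.0511 to 0.130), with differences of -0.62 to -0.50 over all 12 samples left out in turn. It was also lost with the processed signals (-0.54, adjusted p = 0.0676), the mean over probes (-0.40, adjusted p = 0.0954) and the oviduct score as covariate (-0.51, adjusted p = 0.214).

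The other genes of that list gave values only. Bhlhe40, a transcriptional repressor of the clock, was at 10.03 to 10.60 in early-life samples, under all controls at 10.87 to 10.93 and all peripubertal samples at 10.73 to 11.28, with differences of -0.54 ± 0.17 and -0.63 ± 0.17 (adjusted p = 0.242 and 0.0711). The latter passed in 4 of 23 other settings, with quantile normalization, without the dye term, without the array block and with the replicate number as a block (adjusted p = 0.0206 to 0.0477). It was -0.79 with the oviduct score as covariate and did not pass there (adjusted p = 0.186). The homeobox gene Meis2 had an early-life minus peripubertal difference of 0.91 ± 0.35 (adjusted p = 0.163). It was -0.04 with the oviduct score as covariate (adjusted p = 0.951), and passed without E2 (adjusted p = 0.0427) and with the replicate number as a block (adjusted p = 0.0433). The phospholipase Plaat3 differed by -1.15 ± 0.47 (adjusted p = 0.174), with E1 at 9.45 against 11.28 to 11.73 in the other early-life samples. It was -0.65 without E1 and -0.67 with the oviduct covariate. From control, Lefty1 differed by -0.47 ± 0.23 in early life, and Egr1 by 0.71 ± 0.40 and Rec8 by -0.52 ± 0.33 in peripubertal ovaries. At an unadjusted p under 0.05 the counts of the list were 2, 1 and 5 in the 3 comparisons, where 13.9%, 11.4% and 23.8% of all genes reached it, and its medians were -0.16, 0.11 and -0.10.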

How the data were processed

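Total RNA of 12 ovary samples was hybridised to 6 2-colour arrays; per the labels' protocols it was extracted on RNeasy columns and labelled with a low-input amplification kit. Scanning output was made by Agilent Feature Extraction 11.0.1.1, per the file headers, and the deposited scanner files give each spot's mean signal and median local background as intensity, without normalization, and a processed signal. The authors' deposited value table holds log2 values with column medians of 0; how it was scaled is not given in the sources used here. Its 4 peripubertal columns matched no scanner channel (best correlation 0.874 to 0.897).

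Values were computed with R 4.3.3, limma 3.58.1 (normexp background with offset 50, loess within and Aquantile between arrays), statmod 1.5.0 and the data.table package (1.17.8), and relations and figures with Python 3.11.15, numpy 2.4.6, pandas 2.3.3 and matplotlib 3.10.9. Spots set aside as outliers were left out (2.82% of values). Probes were kept that stood well above background in 4 or more of the 12 samples, with a value in every group (24183 of 39429), and the brightest probe stood for a gene. A gene is named by the array's symbol, brought up to date through the RefSeq gene list of build GRCm38.p6 where it was listed there (15548 of 18783 genes); promoter sequences are RefSeq's. All samples entered a single limma model with dye as covariate, the array being a random block (correlation 0.285). A gene was called at an adjusted p under 0.05, by Benjamini and Hochberg's method across the genes tested. The code was tested on simulated data. Relations used 100000 permutations, two-sided. A marker score is the mean deviation of a list's genes from their means. Same-numbered samples were not treated as pairs. Of 12 such pairs across groups 3 had a correlation over 0.1, all of control with early life (C1 and E1 0.22, C2 and E2 0.55, C4 and E4 0.38). Pairs with a peripubertal sample reached at most 0.081.

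The members and lists were chosen with earlier results of these data known. Named genes are all members, in each of the 3 retinoid lists the genes that passed and the 4 with the smallest p per comparison, the RXR genes, Vdr, and the 3 genes most like each member; some genes that this rule names are not reported here. Alternatives were other background, normalization, filter, probe, outlier, dye, block, variance and covariate settings, each sample left out, the control and early-life slide alone, and the deposited value table.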

Additional observations from a re-analysis of the deposited data

Results flagged for a closer look

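In P1 the log2 level of Stra6 was 11.87, while P2, P3 and P4 lay between 11.42 and 11.43 and made it stand apart from its group by Dixon's criterion. It was 1 of 28 groups of member probes that were checked, and chance alone puts about 1 in 20 groups past this limit. Without P1 the other peripubertal values still lay above all 4 early-life values.

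The 4 peripubertal columns of the authors' deposited value table, which matched no array and entered no comparison, gave Rarb a mean of 1.75 on the table's log2 scale (1.17 to 2.50), above all 8 other columns (-1.87 to 0.75). In the same columns Aldh1a1 was at 3.04 to 4.08 against 7.49 to 9.90 in the others, and Stra6, Crabp2 and Rara also lay below all other columns, Rara at 2.63 to 3.51 against 3.53 to 5.21. The scale is that of the table, and what these columns measured is not known.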

How the results depend on the processing

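Over 639 values of the 9 members under other settings, 2 passed the test, both for Aldh1a1 in early life minus peripubertal, 36 changed sign, 4 of them with a difference over 0.3 in size, and 12 moved by more than a standard deviation of a group. Among these 4 were early life minus control of Aldh1a1, Aldh1a2 and Stra6, at 0.99, 0.47 and 0.69 in the deposited value table. There the groups are the other way round, so these reversals go with the labels. The counts of genes called over all genes moved by more than 1.5 times under these settings. For early life minus control, with 4 called, the count was 14 with processed signals, 0 without the filter on dim probes, 0 with the mean over probes, 1 with outlier spots kept, 21 without the dye term, 91 without the array block, 0 with the oviduct score as covariate, 0 on the control and early-life slide alone and 2 on the deposited value table. For peripubertal minus control, with 43 called, it was 19 without the filter, 18 with the mean over probes, 19 with outlier spots kept, 75 without the dye term, 151 without the array block and 0 with the oviduct covariate. For early life minus peripubertal, with 481 called, it was 228 with processed signals, 289 with the mean over probes, 737 without the dye term, 2103 without the array block and 0 with the oviduct covariate. With the replicate number as a block, although the numbers did not pair the samples, the counts were 0, 13 and 630, and no member's call changed. Leaving out 1 sample at a time gave 0 to 82, 0 to 23 and 2 to 1552 genes. The cause of these shifts was not tested. The 4 samples per group, on a pair of arrays each, and spots at 6.85 to 9.49 times background limit what can be called.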
